A study of Mus musculus with 15 samples.

Results

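The RNA-binding proteins of the MBNL, CELF and PTB families, together with Rbfox2 and Qk, were followed across the states of mouse CD8+ T cells. The 10 genes were chosen by name (Mbnl1, Mbnl2, Mbnl3, Celf1, Celf2, Ptbp1, Ptbp2, Ptbp3, Rbfox2 and Qk) out of 55536 annotated genes with a row in the gene table. All 10 had a row, and 9 were among the 17366 genes that passed the filter on low counts. Rbfox2 did not pass and is given as counts only. All 15 libraries came from OT-I cells, which carry a transgenic receptor for an ovalbumin peptide on a C57BL/6J background. The study's methods describe the OT-I donor mice as deficient in Rag1 or Rag2. Naive libraries (5) were made from OT-I mice whose cells were not transferred. Ag libraries (5) came from OT-I cells carrying CD45.1 that had been moved into wild-type C57BL/6J recipients, which were given the SIINFEKL peptide with a control rat IgG and from which spleen and lymph node cells were taken after 4 days. Ag+Costim libraries (5) came from the same kind of transfer and peptide, with agonist antibodies to OX40 (CD134) and CD137 (4-1BB) in place of the IgG. Naive cells differ from the other groups in transfer, host and antigen at once, and these cannot be told apart in comparisons with Naive.

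MBNL proteins bind YGCY motifs through zinc fingers and turn exons on or off according to whether they sit downstream or upstream of them, and they also act on the choice of 3′ ends and on RNA localisation. CELF proteins bind GU-rich RNA and often act on the same exons as MBNL in the opposite direction. PTB proteins bind pyrimidine-rich tracts through RNA recognition motifs and mainly repress exons. Ptbp1 is the widely expressed form, Ptbp2 is best known from neurons, where it replaces Ptbp1, and Ptbp3 is prominent in blood cells. A known cross-control links them: Ptbp1 makes the cell skip an exon of the Ptbp2 transcript, and of its own, which leaves an RNA that is degraded. Rbfox2 binds GCAUG and Qk binds ACUAA-like sites, and both act on splicing. In T cells this class of regulator is known for the exons of Ptprc (CD45) and for the switch of exon use that follows activation.

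Total counts per library ranged from 4865952 in Ag 3 to 25280667 in Naive 3, with a median of 14967616. Several libraries stood apart from their groups, and for Ag 1 the deposited tables do not match. In the deposited FPKM table the columns named for Ag 1 and Naive 5 hold the same values. Over 13110 genes, 14 of its 15 columns were nearest to the count library of their own name, and the column named for Ag 1 was nearest to the count library labelled Naive 5 (Pearson r across genes 0.691, and -0.0647 with the count library labelled Ag 1). The column named for Naive 5 was nearest to its own count library, so the tables disagree on Ag 1 alone. Since the same values stand under both names, the labels of these 2 libraries were treated as uncertain. They were kept as labelled, and results are also given without both, an alternative chosen after seeing the data. Naive 5 had a summed CPM of 739 for 4 activation markers (Gzmb, Ifng, Mki67, Il2ra), against 42 to 307 in the other Naive libraries. The Ag group was not uniform: the same sum was 139 in Ag 1 and 146 in Ag 4, and 769 to 1160 in Ag 2, Ag 3 and Ag 5. Ag+Costim libraries had 685 to 1209. Markers of the CD8 T cell lineage were high throughout, from 3217 to 6527 CPM over 5 genes, and no marker of any list was at 0 in a whole group. The 5 B cell markers summed to 137, 361 and 168 CPM in Ag 1, Ag 3 and Ag 4 and to at most 31.7 in every other library, the 5 myeloid markers summed to 161 CPM in Naive 5, 8.77 to 71.2 in the other Naive libraries, 42.7 to 102 in Ag and 59.7 to 128 in Ag+Costim, and the 4 erythroid markers reached 705 CPM in Ag 3, where only 16.9% of the sequenced reads were counted. The part of these other cells in the results was not tested. Ag 2 and Ag 5 were made from input amounts of 1.4 and 1.8, against 7 to 10 elsewhere, on a scale with no stated unit. All Ag libraries and 3 of the Ag+Costim libraries were run in lane 2, and the others in lane 3, so that lane and group cannot be told apart for Ag against Naive. In bulk populations such as these, fewer cells of a type and less RNA per cell cannot be told apart.

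On the scale that corrects for transcript length (TPM, counts per length scaled to a fixed total per library), Mbnl1 was the highest of the 10 genes in every group. In Naive cells its level was 441 ± 44.5 TPM (SD, n = 5), followed by Ptbp1 at 167 ± 41, Celf2 at 113 ± 6.28 and Ptbp3 at 65.1 ± 8.07. Each of these differed from its neighbour in the order without overlap of libraries. Celf1 (47.2 ± 6.99 TPM) and Mbnl2 (46.6 ± 12.4 TPM) overlapped in Naive cells. Ptbp2 (12.7 ± 2.15 TPM), Mbnl3 (7.52 ± 6.13 TPM) and Qk (3.54 ± 0.734 TPM) were lower, with overlap between neighbours, and Rbfox2 was at 0.0809 ± 0.0789 TPM. In Ag+Costim cells the upper end kept this order, with Mbnl1 at 304 ± 16.8, Ptbp1 at 228 ± 23.7 and Celf2 at 128 ± 8.71 TPM. At the lower end Mbnl3 (26.3 ± 1.44 TPM) stood above Mbnl2 (16.1 ± 4.38 TPM) in Ag+Costim cells, without overlap of libraries. In Naive cells Mbnl2 stood above Mbnl3, again without overlap: the lowest Mbnl2 library had 28.3 TPM and the highest Mbnl3 library 17.5 TPM. In the Ag group, the levels of all neighbours from Mbnl1 down to Celf2 and from Ptbp3 down to Qk overlapped.

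Transfer with antigen was compared with the naive state first. Mbnl1 was lower in Ag than in Naive cells, and no other of the 9 tested genes was called in this comparison. By edgeR's quasi-likelihood test with Benjamini-Hochberg adjustment over all genes (FDR), 6.71% of the 17366 genes tested were called at an FDR under 0.05, 3.05% higher and 3.66% lower in Ag. DESeq2 called Mbnl1 and Celf1 (17.9% of all genes), and voom with sample quality weights these and Mbnl3 (20.0%). Without Naive 5 and Ag 1, 4 of the 9 genes were called (Mbnl1, Mbnl2, Mbnl3 and Ptbp1), beside 31.5% of all genes. Adding costimulation to antigen gave no call among the 9 genes, with 0.0346% of all genes called (6 genes); DESeq2 called 2 of the 9 (Celf1 and Celf2, 15.2% of all genes) and voom with sample quality weights 6 (57.4%). At an unadjusted p under 0.05 it gave 3 of the 9 (Celf1, Celf2 and Ptbp1, all higher in Ag+Costim), against 26.8% of all genes. Between the far ends of the design, Ag+Costim and Naive, Mbnl3, Ptbp1 and Celf2 were higher in Ag+Costim cells and Mbnl2 and Ptbp2 were lower. These are 5 of 9 genes, a share near that of all genes called in that comparison (44.7%, with 21.0% higher and 23.6% lower). The same 5 genes were called without Naive 5 and Ag 1, beside 52.6% of all genes. Within lane 3, with 2 Ag+Costim and 5 Naive libraries, Celf2, Ptbp1, Mbnl2 and Ptbp2 were called too (log2 fold change 0.49, 0.86, -1.55 and -0.85, FDR 0.0322, 0.048, 0.0262 and 0.0309), and Mbnl3 was not (1.69, FDR 0.0554). Within lane 2, with 3 Ag+Costim and 5 Ag libraries, none of the 9 was called. The share of all genes called within a lane was not counted, so these calls are not read as particular to the 9 genes. The median log2 fold change of the 9 genes was -0.06 for Ag over Naive, 0.23 for Ag+Costim over Ag and -0.10 for Ag+Costim over Naive, and that of all genes was 0.08, -0.10 and -0.08.

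**Figure D1:**
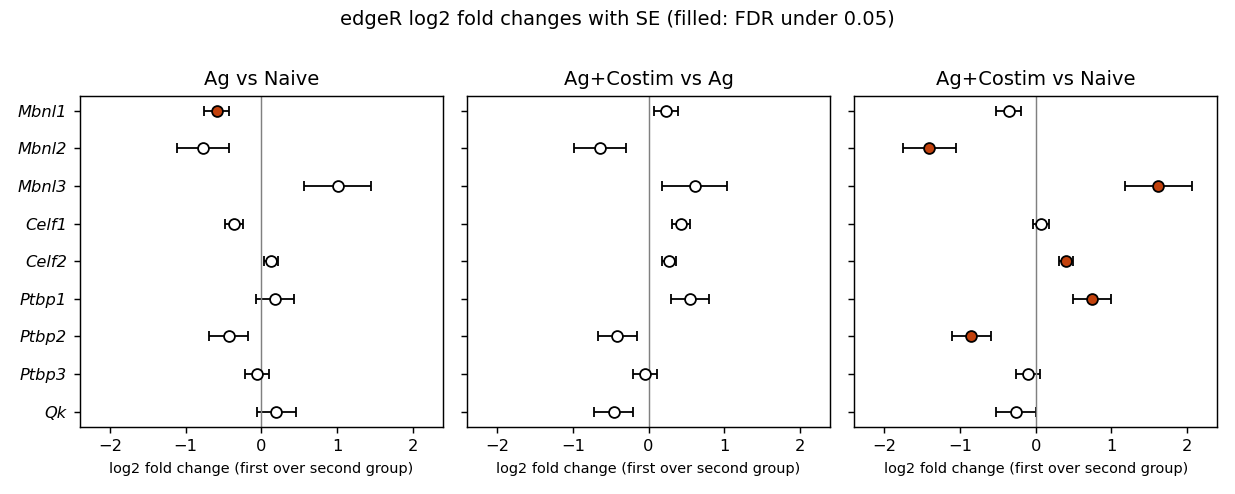
Log2 fold change (x axis, first named group over the second) with its SE for the 9 tested genes in 3 comparisons of 5 libraries each, from edgeR. Filled points passed an FDR of 0.05: Mbnl1 alone in Ag vs Naive, none in Ag+Costim vs Ag, and Mbnl2, Mbnl3, Celf2, Ptbp1 and Ptbp2 in Ag+Costim vs Naive.

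The MBNL genes moved in different directions. Mbnl1, the MBNL gene with the most RNA in these cells, had 779, 715, 853, 808 and 1024 CPM (counts scaled by library total and TMM) in Naive 1 to 5. In Ag 1 to 5 it had 633, 525, 585, 689 and 336 CPM. In Ag+Costim 1 to 5 it had 640, 646, 626, 682 and 662 CPM. Every Naive library lay above every library of the other groups, Naive 5 was the highest and Ag 5 the lowest. Of the 9 genes, Mbnl1 alone did not overlap between Ag and Naive, beside 3.85% of all genes, and 5 (Mbnl1, Mbnl2, Mbnl3, Celf2 and Ptbp2) did not overlap between Ag+Costim and Naive, beside 45.0% of all genes. Mbnl1 was lower in Ag than in Naive cells by a log2 fold change of -0.59 (SE 0.16, FDR 0.0427, edgeR). This call was lost in 11 of 19 alternative analyses, including lane as a term (FDR 0.626), the 10 libraries alone (FDR 0.214) and each of 5 left-out libraries (Naive 1, 3 and 4, Ag 2 and 3), while its log2 fold change stayed between -0.71 and -0.34. Ag and Naive share no lane, so the lane term rests on the Ag+Costim libraries alone. With it the log2 fold change of Mbnl1 was -0.52, and the lost call cannot decide whether Mbnl1 depends on lane. Against Naive, Ag+Costim cells had -0.36 (SE 0.16, FDR 0.0791), which did not pass, and against Ag 0.23 (SE 0.16, FDR 0.36).

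Mbnl2, the paralog best known from the brain, had 96.6, 88.2, 104, 101 and 48.4 CPM in Naive 1 to 5. Its CPM in Ag 1 to 5 was 78.7, 29.2, 36.4, 91.4 and 22, and in Ag+Costim 1 to 5 it was 33.1, 39.6, 32.7, 27 and 33. Naive 5 was low among the Naive libraries, and Ag 1 and Ag 4 lay within the Naive range while Ag 2, Ag 3 and Ag 5 lay below it. The log2 fold change of Ag+Costim over Naive was -1.41 (SE 0.35, FDR 0.0101, edgeR), with no overlap of libraries, and the call was lost in 1 of 20 alternatives, with lane as a term (FDR 0.0631). Ag over Naive gave -0.77 (SE 0.34, FDR 0.16), and -1.12 (FDR 0.0329) without Naive 5 and Ag 1, and Ag+Costim over Ag -0.64 (SE 0.34, FDR 0.244).

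Mbnl3, the family member linked to muscle precursor cells and proliferating tissue, went the other way. Naive 1 to 5 had 9.16, 15.5, 8.36, 6.95 and 37 CPM. Ag 1 to 5 had 15, 35.3, 36.2, 16.2 and 51.9 CPM, and Ag+Costim 1 to 5 had 47.6, 43, 47.7, 49.7 and 48.1 CPM. The high Naive library was again Naive 5, and the low Ag libraries were Ag 1 and Ag 4. Ag+Costim libraries lay above every Naive library, with a log2 fold change of 1.62 (SE 0.44, FDR 0.0145, edgeR). Without Naive 5 and Ag 3 it was 2.34 (FDR 0.000531), an alternative chosen after seeing the data, and with lane as a term it did not pass (FDR 0.0646), nor within lane 3 (FDR 0.0554). Ag over Naive gave 1.01 (SE 0.44, FDR 0.152), which passed when Naive 5 was left out (1.64, FDR 0.00778) and without Naive 5 and Ag 1 (1.80, FDR 0.00234). Ag+Costim over Ag gave 0.61 (SE 0.43, FDR 0.372).

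In the Naive and Ag groups, the libraries with the highest Mbnl3 and the lowest Mbnl2 were also those with high activation markers. Naive 5, with 739 CPM of these markers, had 37 CPM of Mbnl3 and 48.4 CPM of Mbnl2, and Ag 1 and Ag 4, with 139 and 146 CPM of the markers, had at most 16.2 CPM of Mbnl3 and at least 78.7 CPM of Mbnl2. The part of activation state in these results was not tested.

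**Figure D2:**
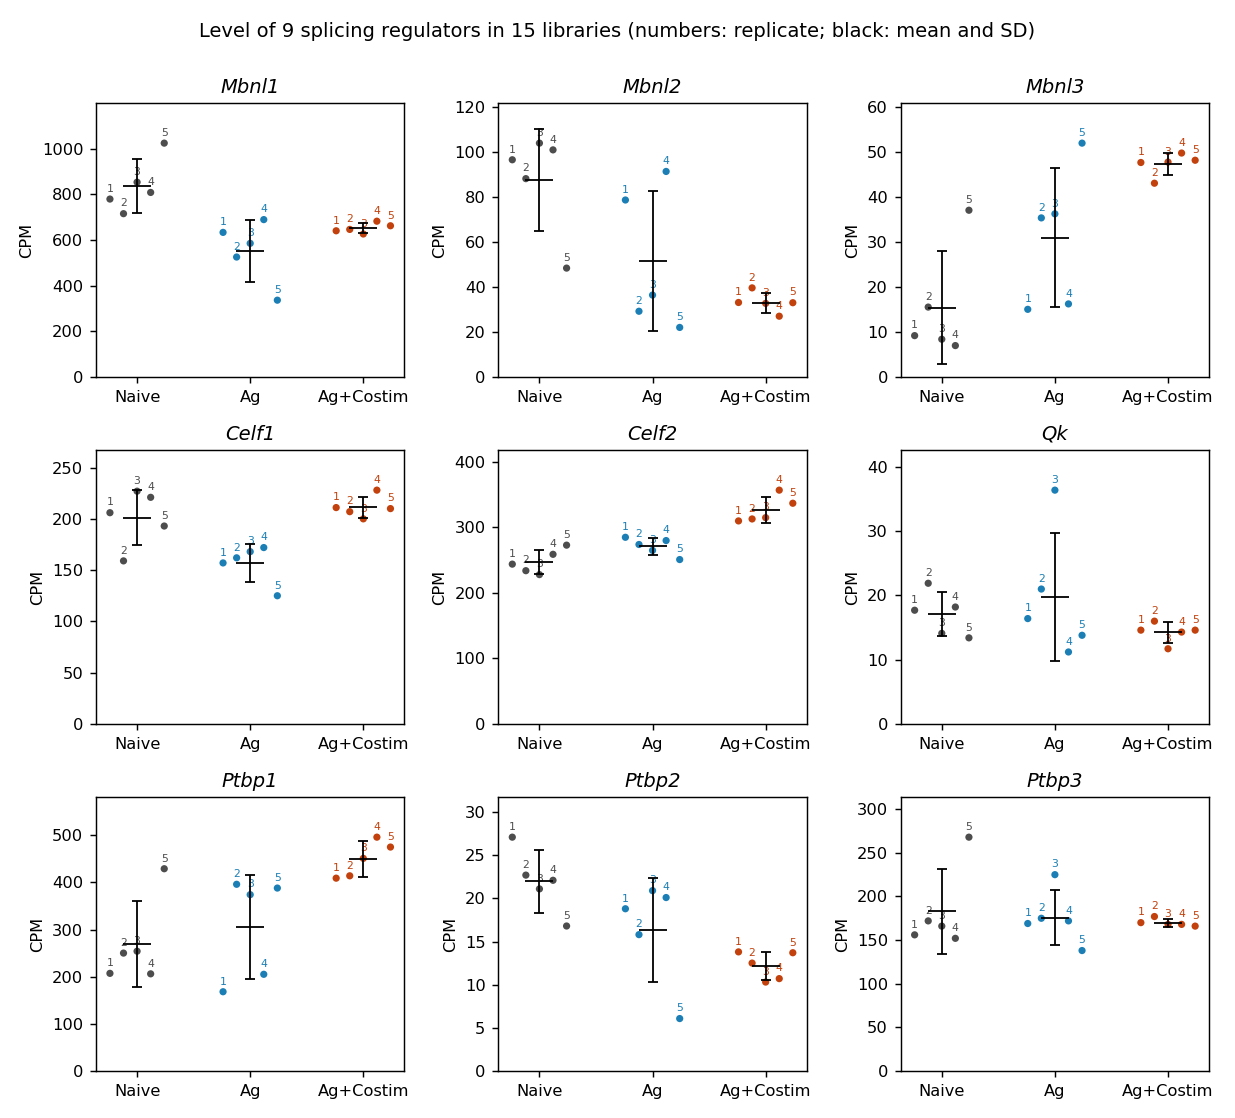
Level in CPM (y axes, from 0) of the 9 tested genes in each of 5 Naive, 5 Ag and 5 Ag+Costim libraries, with the mean and SD in black. In Mbnl2, Mbnl3 and Ptbp1, libraries Ag 1 and Ag 4 sit at the Naive level and Naive 5 sits near the Ag+Costim level.

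Among the PTB genes, Ptbp1 was the one that rose. It had 207, 250, 254, 206 and 429 CPM in Naive 1 to 5, and 168, 396, 374, 205 and 388 CPM in Ag 1 to 5. Ag+Costim 1 to 5 had 409, 414, 451, 496 and 475 CPM. All Ag+Costim libraries lay above all Ag libraries, whose highest was 396 CPM, and only Naive 5 among the Naive libraries reached them. For Ag+Costim over Ag, 6.33% of all genes did not overlap, and among the 9 genes these were Ptbp1, Celf1 and Celf2. The log2 fold change of Ptbp1 was 0.55 (SE 0.25, FDR 0.183, edgeR) for Ag+Costim over Ag, which did not pass, and 0.74 (SE 0.25, FDR 0.0326) for Ag+Costim over Naive. The latter was lost in 9 of 20 alternatives, among them lane as a term (FDR 0.0842) and each of 8 left-out libraries (Naive 1 to 4 and Ag+Costim 1, 2, 3 and 5, FDR 0.0502 to 0.0827). Without Naive 5 and Ag 3 it was 1.05 (FDR 0.00286). In Ag over Naive it was 0.18 (SE 0.25, FDR 0.636), and 0.55 (FDR 0.0367) without Naive 5 and Ag 1.

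Ptbp2, which Ptbp1 is known to hold down, fell between the ends of the design. Its level was 27.1, 22.7, 21.1, 22.1 and 16.8 CPM in Naive 1 to 5. Ag 1 to 5 had 18.8, 15.8, 20.9, 20.1 and 6.07 CPM, and Ag+Costim 1 to 5 had 13.8, 12.5, 10.3, 10.7 and 13.7 CPM. Naive and Ag+Costim did not overlap, and Ag 5 was the lowest library of all. The log2 fold change of Ag+Costim over Naive was -0.85 (SE 0.26, FDR 0.0213, edgeR), lost in 4 of 20 alternatives: no filter on low counts (FDR 0.12), lane as a term (FDR 0.106), and without Naive 1 (FDR 0.0592) or Ag+Costim 4 (FDR 0.0679). Ag over Naive gave -0.43 (SE 0.26, FDR 0.264) and Ag+Costim over Ag -0.41 (SE 0.26, FDR 0.317).

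Ptbp3, the PTB form of blood cells, passed in no comparison. It ranged from 152 to 268 CPM in Naive, from 138 to 225 CPM in Ag and from 166 to 177 CPM in Ag+Costim libraries. The 268 CPM belonged to Naive 5 and the 225 CPM to Ag 3, and the groups overlapped in every comparison. Its log2 fold changes were -0.06, -0.05 and -0.10 (SE 0.16 each, FDR 0.835, 0.864 and 0.599, edgeR) for Ag over Naive, Ag+Costim over Ag and Ag+Costim over Naive, and each changed sign in several alternatives.

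Celf2, the most abundant CELF gene here and a regulator with known targets in T cells, had 244, 234, 228, 259 and 273 CPM in Naive 1 to 5. Ag 1 to 5 had 285, 274, 265, 280 and 251 CPM. Ag+Costim 1 to 5 had 310, 313, 315, 357 and 337 CPM. Every Ag+Costim library was above every library of the other groups in CPM. In TPM the groups overlapped, with 106 to 122 in Naive, 66.8 to 119 in Ag and 116 to 138 in Ag+Costim libraries. The log2 fold change of Ag+Costim over Naive was 0.40 (SE 0.09, FDR 0.00655, edgeR). It was lost with no filter on low counts (FDR 0.0685) and with library totals in place of TMM (FDR 0.0574), and kept with lane as a term, where no other of the 9 genes was called. Ag+Costim over Ag gave 0.27 (SE 0.09, FDR 0.0906), which DESeq2 called (FDR 0.0142), and Ag over Naive 0.13 (SE 0.09, FDR 0.315).

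Celf1, which is known for marking GU-rich mRNAs for decay as well as for splicing, had 206, 159, 227, 221 and 193 CPM in Naive 1 to 5. In Ag 1 to 5 it had 157, 162, 168, 172 and 125 CPM, and in Ag+Costim 1 to 5 it had 211, 207, 200, 228 and 210 CPM. Ag lay below Ag+Costim in every library, and below Naive except for Naive 2. Neither contrast passed: Ag over Naive gave -0.36 (SE 0.12, FDR 0.0686, edgeR) and Ag+Costim over Ag 0.43 (SE 0.12, FDR 0.0807). DESeq2 called both (FDR 0.0147 and 0.0112). Between Ag+Costim and Naive the log2 fold change was 0.07 (SE 0.11, FDR 0.632). Besides Mbnl1, Celf1 was the only tested gene whose mean CPM was lowest in Ag, at 157 against 201 in Naive and 211 in Ag+Costim cells. In TPM, Ptbp1 (167, 144 and 228 in Naive, Ag and Ag+Costim) and Celf2 (113, 103 and 128) were lowest in Ag too.

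Qk, a KH-domain protein of the STAR family, was low and gave no call. It ranged from 13.4 to 21.9 CPM in Naive, from 11.2 to 36.4 CPM in Ag and from 11.7 to 16 CPM in Ag+Costim libraries, with the 36.4 CPM in Ag 3. Its log2 fold changes were 0.20, -0.46 and -0.26 (SE 0.26 each, FDR 0.624, 0.279 and 0.419, edgeR) in the order of comparisons above. Rbfox2 was barely counted. Its raw counts in Naive 1 to 5 were 3, 11, 0, 2 and 9. In Ag 1 to 5 they were 11, 0, 18, 0 and 0, and in Ag+Costim 1 to 5 they were 0, 2, 2, 0 and 0. With 7 of 15 libraries at 0, a difference between groups was not detectable at this depth.

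Other RNA-binding regulators of the same kind were counted from a list of 43 genes, of which 31 were tested. In Ag over Naive, 1 was called higher (Pcbp4, a poly(C)-binding protein, 1.06, FDR 0.0232) and 2 lower (Raver2, a PTB co-factor, -1.32, FDR 0.0188, and Rbm25, -0.71, FDR 0.0341, all by edgeR). None of the list was called with lane as a term, in the 10 libraries alone, or without Naive 1, Naive 3 or Naive 4. Without Naive 5, 7 were called, and without Naive 5 and Ag 1, 8 were, the latter beside 31.5% of all genes. No gene of the list was called in Ag+Costim over Ag, where 11 had an unadjusted p under 0.05, beside 26.8% of all genes. DESeq2 called 14 of 42 it tested, some of them below the filter on low counts, beside 15.2% of genes past the filter. The fit by voom with sample quality weights called 21 of 31, beside 57.4% of all genes. The highest log2 fold changes there were those of Taf15 (0.81, SE 0.29, FDR 0.105) and Raver1 (0.80, SE 0.20, FDR 0.0807), and the lowest those of Khdrbs2 (-4.18, SE 1.44, FDR 0.1) and Celf3 (-3.71, SE 1.34, FDR 0.109). Khdrbs2 had from 0 to 34.2 CPM in the Ag libraries with a median of 1.36, and Celf3 from 0 to 3.92 with a median of 0.716, so that both rest on few Ag libraries. In Ag+Costim over Naive, 7 were called higher and 8 lower (voom called 26, beside 78.5% of all genes). The 4 with the highest log2 fold change were Pcbp4 (1.39, SE 0.25, FDR 0.00297), Hnrnpll (1.22, SE 0.29, FDR 0.00893), Nono (0.68, SE 0.18, FDR 0.012) and Raver1 (0.64, SE 0.20, FDR 0.0218). Hnrnpll is the protein known for silencing variable exons of CD45 in activated T cells, and Raver1 is a PTB co-factor like Raver2. The 4 with the lowest were Raver2 (-1.83, SE 0.29, FDR 0.00201), Zfp36l1 (-1.36, SE 0.47, FDR 0.0324), Rbm5 (-0.88, SE 0.24, FDR 0.0138) and Rbm39 (-0.86, SE 0.20, FDR 0.00814). The PTB co-factors changed in opposite directions: Raver1 had 137 ± 13 CPM in Ag+Costim and 88.3 ± 27.3 in Naive cells, and Raver2 3.33 ± 0.473 and 11.9 ± 4.23 (SD, n = 5). The share called was 15 of 31, beside 44.7% of all genes, and the median log2 fold change of the list was -0.09, -0.01 and -0.09 in the 3 comparisons.

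As a description over the 15 libraries, genes whose log2 CPM ran close to that of Mbnl1 were Dock11 and Foxj3 (Pearson r 0.96 and 0.95, of 11338 genes whose mean reached 5 CPM). The closest to Celf2 were Fcho1, Wiz and Rasgrp2 (r 0.886, 0.883 and 0.880). The closest to Ptbp1 were Hspa4, Gm4900 and Cstf2 (r 0.990, 0.990 and 0.989). The points of these correlations share the groups and the differences between libraries given above.

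Transcript usage, meaning the share of a gene's estimated count that each annotated transcript holds, was called for none of the 9 genes in any comparison. The share of tested genes called was 0.547% in Ag over Naive, 0.933% in Ag+Costim over Ag and 1.01% in Ag+Costim over Naive, of 7501 genes (edgeR diffSpliceDGE). The lowest gene-level FDR was 0.44 (Mbnl2), 0.376 (Celf1) and 0.194 (Mbnl2), and in each comparison 1 of the 9 genes had an unadjusted p under 0.05, as had 448, 652 and 999 of all genes. limma's diffSplice also called none of the 9. Of 65 transcripts of these genes tested, the shares of 0, 3 and 5 did not overlap between the groups, beside 1.30%, 2.24% and 14.2% of all transcripts tested.

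For Mbnl3 the mean shares of its main coding transcripts changed in opposite directions between groups. Mbnl3-203 has 8 exons and 1026 coding bases, and Mbnl3-202 has 7 exons and 738 coding bases. Mbnl3-202 lacks an exon of 247 bases (chrX:51164418-51164664, GRCm38, minus strand) that carries the start codon of Mbnl3-203, and it also has a longer last exon, 3750 against 939 bases. The 177 coding bases of that exon (chrX:51164418-51164594), shown because they begin the longer reading frame and are absent from Mbnl3-202, are part of the difference in coding length and are given with the start codon in capitals.
Mbnl3 first coding exon: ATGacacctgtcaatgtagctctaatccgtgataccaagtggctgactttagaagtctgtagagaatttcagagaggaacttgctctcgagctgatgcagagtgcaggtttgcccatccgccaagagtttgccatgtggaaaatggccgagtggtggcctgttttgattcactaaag

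In Naive 1 to 5 Mbnl3-203 held 0.154, 0.553, 0.161, 0.17 and 0.361 of the Mbnl3 count. In Ag 1 to 5 it held 0, 0.471, 0.193, 0.261 and 0.603, and in Ag+Costim 1 to 5 it held 0.577, 0.868, 0.602, 0.721 and 0.76. Ag+Costim lay above Naive in every library and overlapped Ag through Ag 5. The margin to Naive is narrow: the highest Naive library (109 of 197 counts, 95% Wilson interval 0.484 to 0.621) and the lowest Ag+Costim library (415 of 719 counts, 0.541 to 0.613) have intervals that overlap. In Ag 1, 0 of 174 counts allow a share of up to 0.0172 by the limit of 3 counts, and up to 0.0216 by the Wilson interval. These intervals and limits cover counting error only. Mbnl3-202 held 0.638 ± 0.21 in Naive cells, 0.605 ± 0.2 in Ag cells and 0.278 ± 0.11 in Ag+Costim cells (SD, n = 5). Its highest Ag+Costim library (0.384) was just below its lowest Ag library (0.386). Ag+Costim overlapped Naive, through Naive 2 at 0.279. Neither transcript passed the test (transcript FDR 0.974 and 0.908 for Ag+Costim over Naive, and 1 and 1 over Ag, edgeR). Since the transcripts differ at both ends and reads were 50 bases long, the shares do not say which end the difference rests on.

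**Figure D3:**
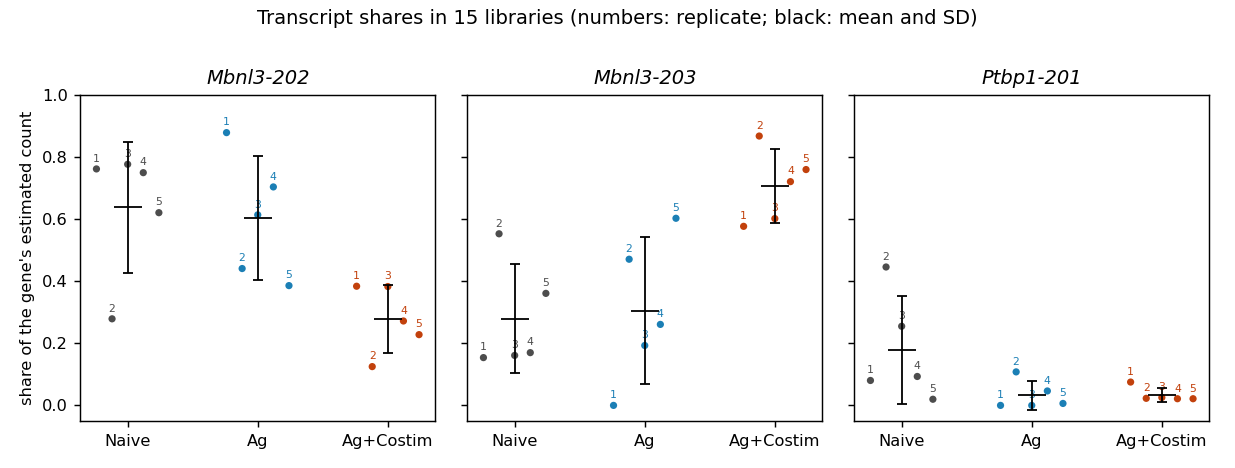
Share of the gene's estimated count (y axis, 0 to 1) held by Mbnl3-202, Mbnl3-203 and Ptbp1-201 in each of the 15 libraries, with the mean and SD in black. Mbnl3-203 lies between 0.577 and 0.868 in Ag+Costim and between 0.154 and 0.553 in Naive libraries, and Ptbp1-201 reaches 0.446 in Naive 2.

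Transcripts annotated as targets of nonsense-mediated decay were seen for Ptbp1. The main one, Ptbp1-201, held 0.0803, 0.446, 0.255, 0.0932 and 0.0198 of the Ptbp1 count in Naive 1 to 5. It held at most 0.108 in the Ag libraries and at most 0.0752 in the Ag+Costim libraries. The Naive mean of 0.179 ± 0.173 (SD, n = 5) rested on Naive 2 and Naive 3, the groups overlapped, and no comparison passed (transcript FDR 1 and 0.819 for Ag and Ag+Costim over Naive). For Ptbp2, such transcripts made up 6.63% ± 8.95 of the count in Naive cells, 0.183% ± 0.41 in Ag cells and 4.87% ± 7.23 in Ag+Costim cells, with overlap. The 2 main coding transcripts of Ptbp2, Ptbp2-201 and Ptbp2-213, have the same number of exons and traded places between libraries. Ptbp2-201 held 0.913 of the count in Ag 2 and 0 in Ag 1, where Ptbp2-213 held 0.78. Every Naive library had Ptbp2-201, at 0.308 to 0.753. Of 5 Ag+Costim libraries, 4 had none of it, and Ag+Costim 2 had 0.89. For Ag+Costim over Naive the mean share of Ptbp2-201 changed by -0.378 and that of Ptbp2-213 by 0.478. Both overlapped and neither passed (transcript FDR 0.987 and 0.892, edgeR). Usage of Ptbp2 was called there only when Ag+Costim 2 was left out. The spread of such shares limits what usage can show for these genes.

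Transcripts with a retained intron were annotated and counted for 8 of the 9 tested genes. Their mean share was lower in Ag+Costim than in Naive cells for all 8, beside 85.1% of 6598 genes with such transcripts, and it did not overlap for 2 of them (Celf2 and Ptbp3), beside 20.6% of genes. In Celf2 it was 10.2% ± 3.6 of the count in Naive cells, 8.25% ± 5.38 in Ag cells and 4.43% ± 1.12 in Ag+Costim cells. In Mbnl1 it was 14.7% ± 6.34, 11.9% ± 4.86 and 7.77% ± 3.19, and in Ptbp3 1.13% ± 0.61, 0.83% ± 0.459 and 0.282% ± 0.0742 (SD, n = 5). Ag+Costim was lower than Ag in 7 of the 8 genes, beside 84.7% of all genes.

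The regulators are themselves spliced, and the exons by which their transcripts differ are largely shared between paralogs. Of 2657 coding cassette exons found in the annotation (an internal exon that some transcripts hold and others skip, with a mean estimated inclusion over 0.1 in some group and under 0.9 in some group), 11 lay in these genes. Mbnl1 and Mbnl2 each had exons of 36, 54 and 95 bases, which agree at 86.1%, 85.2% and 85.3% of their bases. The 54-base exon is the one known to affect the nuclear location of MBNL proteins. It lies at chr3:60614683-60614736 in Mbnl1 and chr14:120395712-120395765 in Mbnl2 (GRCm38, plus strand), and the 36-base exon at chr3:60621423-60621458 and chr14:120403336-120403371. They are shown because their inclusion is compared below, with capitals for the bases that both paralogs share.
Mbnl1 54-base exon: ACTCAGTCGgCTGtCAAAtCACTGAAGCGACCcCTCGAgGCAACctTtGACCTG
Mbnl2 54-base exon: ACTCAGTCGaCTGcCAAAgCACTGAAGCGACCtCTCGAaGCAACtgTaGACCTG
Mbnl1 36-base exon: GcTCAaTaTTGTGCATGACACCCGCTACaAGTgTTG
Mbnl2 36-base exon: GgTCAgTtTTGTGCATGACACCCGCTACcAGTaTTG

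Inclusion was estimated from transcript counts per length. The 54-base exon of Mbnl1 was included at 0.385 ± 0.273 in Naive cells, 0.336 ± 0.305 in Ag cells and 0.393 ± 0.181 in Ag+Costim cells (SD, n = 5). That of Mbnl2 was included at 0.261 ± 0.222, 0.538 ± 0.345 and 0.32 ± 0.365. Libraries of 1 group differed widely, from 0.0245 to 0.745 for Mbnl1 in Ag. The 36-base exon was included at 0.625 ± 0.285 in Naive cells, 0.689 ± 0.318 in Ag cells and 0.666 ± 0.162 in Ag+Costim cells in Mbnl1, and at 0.121 ± 0.225, 0.0112 ± 0.0159 and 0.0148 ± 0.0175 in Mbnl2. In 14 of 15 libraries its inclusion in Mbnl2 was at most 0.0425. The exception was Naive 1 at 0.523, and the lowest Mbnl1 library was 0.266. The 95-base exon was included at 0.601 to 0.686 on average in Mbnl1 and at 0.865 to 0.891 in Mbnl2.

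Ptbp1 and Ptbp2 share an exon of 34 bases whose length is not a multiple of 3, so that skipping it shifts the reading frame. It lies at chr10:79862014-79862047 in Ptbp1 (plus strand) and chr3:119724612-119724645 in Ptbp2 (minus strand). The exons of Ptbp1 and Ptbp2 agree at 76.5% of their bases. They are shown because this is the exon of the known cross-control, with capitals for shared bases.
Ptbp1 34-base exon: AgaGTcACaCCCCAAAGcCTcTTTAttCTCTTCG
Ptbp2 34-base exon: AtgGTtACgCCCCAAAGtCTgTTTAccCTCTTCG

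Estimated inclusion of this exon in Ptbp1 was 0.855, 0.4, 0.595, 0.828 and 0.962 in Naive 1 to 5. It was 1, 0.821, 1, 0.918 and 0.987 in Ag 1 to 5 and 0.866, 0.955, 0.957, 0.96 and 0.961 in Ag+Costim 1 to 5. Naive 2 and Naive 3 were low and the groups overlapped. In Ptbp2 it was 0.855 ± 0.186 in Naive cells, 0.967 ± 0.0732 in Ag cells and 0.861 ± 0.151 in Ag+Costim cells (SD, n = 5), also with overlap. In no library was it under 0.594, at a total of 872 Ptbp2 counts over the 5 Ag+Costim libraries. A further exon of Ptbp1, of 78 bases, was included at 0.392 ± 0.311, 0.616 ± 0.0408 and 0.569 ± 0.23, and an exon of 144 bases in Celf2 at 0.553 ± 0.0972, 0.621 ± 0.0601 and 0.627 ± 0.0583. Ptbp3 has an exon of 34 bases too, near its 5′ end and without a counterpart among those above, with 0.642 ± 0.118, 0.556 ± 0.298 and 0.704 ± 0.139. None of the 11 exons separated any 2 groups without overlap, beside 1.54%, 1.35% and 4.67% of the 2657 exons in Ag vs Naive, Ag+Costim vs Ag and Ag+Costim vs Naive.

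**Figure D4:**
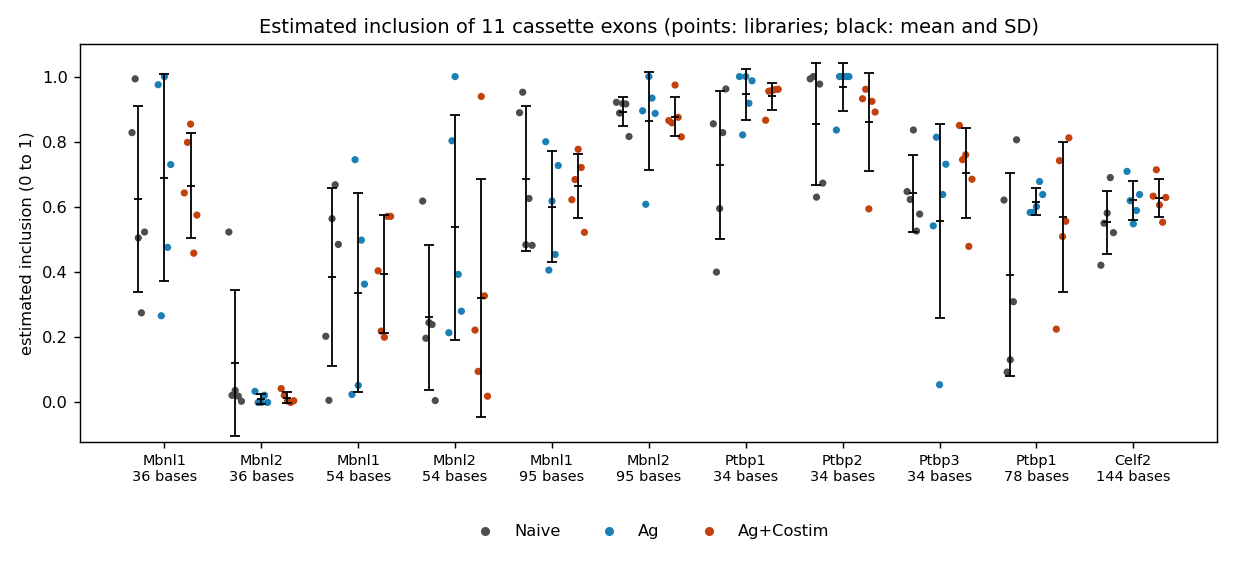
Estimated inclusion (y axis, 0 to 1) of 11 cassette exons in each library of the 3 groups, with the mean and SD in black. The 36-base exon is near 0 in Mbnl2 in all libraries but Naive 1 (0.523) and spread from 0.266 to 1 in Mbnl1, and every exon overlaps between groups.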

How the data were processed

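RNA of purified OT-I CD8+ T cells (5 Naive, 5 Ag and 5 Ag+Costim libraries) was converted with SMART-Seq v4 and Nextera XT and read as single reads of 50 bases, without strand. Per the submitters' processing notes, the authors used HISAT2 2.1.0, SAMtools 1.9, StringTie 2.1.0, R 4.0.5 and DESeq2 1.30.1 on mm10, and the deposited gene and transcript tables hold StringTie's estimated counts as whole numbers, not normalised. StringTie splits a read between transcripts by a model, so transcript shares carry an error beyond counting. Identifiers matched GENCODE M21 (GRCm38), and coordinates count from 1. Entries named by a number alone (26248, 0.0818% of counts) were left out. The deposited FPKM values, computed per transcript by the authors, served only to compare their columns with the count libraries (log2 of the value + 0.1 per gene, centred), since the columns of Ag 1 and Naive 5 are identical. The deposited table of the sequencing core gives sequenced reads, lane, input amount and a complexity percentage per library, as the authors received it, and that percentage enters no result.

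Genes were kept by filterByExpr (17366), scaled by TMM and tested with edgeR 4.0.16 in R 4.3.3 by a quasi-likelihood fit with 1 coefficient per group to all 15 libraries, two-sided, at a Benjamini-Hochberg FDR under 0.05. The common biological CV was 0.431. Every p-value with an FDR comes from such a fit across all genes. The SE is the log2 fold change divided by the root of F. Usage was tested with diffSpliceDGE (gene and transcript FDR under 0.05 and a share change of at least 0.1), and shares of counts in single libraries have 95% Wilson intervals. TPM and exon inclusion are transcript counts over annotated length, and an exon was used where at least 0.5 of the gene's counts came from transcripts that tell inclusion from skipping. Exon sequences were read from the GENCODE M21 transcripts. DESeq2 1.42.0, limma 3.58.1 (voom with sample quality weights, diffSplice), other filters and scalings, lane as a term, fits within a lane, the replicate block and leaving out each library were the alternatives, and Naive 5 left out together with Ag 3 or with Ag 1, the cassette exons and the comparison of retained-intron shares with all genes were added after seeing the data. The scripts were tested on simulated data. All 10 members are named, with transcripts of a mean share of at least 0.1 in a group, at most 4 highest and 4 lowest called genes of the list of 43 per comparison (with none called, 2 and 2), and the 3 genes nearest to Mbnl1, Celf2 and Ptbp1, of which 1 is not reported here. The members and lists were chosen with earlier results of these data known. Replicate numbers were not taken to pair the samples. For Ag and Naive the correlation of same-numbered deviations ran from -0.324 to 0.47, with 0.421, 0.47 and 0.405 for replicates 1, 4 and 5. Differently numbered libraries were not compared in this way. The study's methods call the libraries biological replicates.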

Additional observations from a re-analysis of the deposited data

Results flagged for a closer look

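In 22 of 153 groups of 5 libraries examined (CPM of the tested genes, transcript shares and exon inclusion), 1 library lay far from the other 4 by Dixon's test (gap over range above 0.71). Chance gives about 1 such group in 20, or 7.65 of 153, and values of transcripts of the same gene are not independent. Explanations were not weighed.

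At the gene level, the library apart was Naive 5 in all 4 cases: Mbnl2 at 48.4 CPM (88.2 to 104 in the other Naive libraries), Mbnl3 at 37 (6.95 to 15.5), Ptbp1 at 429 (206 to 254) and Ptbp3 at 268 (152 to 172). Naive 5 also had the highest activation markers of the Naive group, 739 CPM. Its label was treated as uncertain, because its FPKM values also stand under the name of Ag 1.

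The other cases concern transcript shares and exon inclusion, and they fell on several libraries. In Naive 1, Mbnl2-202 held 0.475 of the Mbnl2 count (0.00411 to 0.0418 in the other Naive libraries), and the 36-base exon, which it carries, was included at 0.523. In Naive 2, Celf1-207 held 0.354 and Ptbp1-202 held 0.38. In Ag 1, Celf1-207 held 0.31, Celf1-208 held 0.66, and the 34-base exon of Ptbp2 was included at 0.836 (1 in all other Ag libraries). In Ag 2 the 95-base exon of Mbnl2 was included at 0.608. Ag 3, the library with the lowest total count, had Qk-202 (annotated as a target of nonsense-mediated decay) at 0.425 and Qk-204 at 0.174, against 0.726 to 0.927 for Qk-204 elsewhere in Ag. In Ag+Costim 1, Ptbp1-201 held 0.0752, Ptbp1-206 held 0.702 and the 34-base exon of Ptbp1 was included at 0.866. In Ag+Costim 2, Ptbp2-201 held 0.89 and was at 0 in the other 4. In Ag+Costim 3, Celf1-203 held 0.217, Celf1-208 held 0.255 and the 34-base exon of Ptbp2 was included at 0.594. In Ag+Costim 4, Ptbp3-201 held 0.514.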

How the results depend on the processing

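Counts of the 9 genes and of the list of 43 called depended on the analysis, and the causes were not tested. The share of all genes called is given above for some of these analyses only. Where it is not given, a change in these counts cannot be told apart from a change over all genes. In Ag vs Naive the genes called were 2 with DESeq2, 3 with voom and sample quality weights, and 0 with no filter on low counts, library totals, lane as a term, the 10 libraries alone and the replicate block. Leaving out single libraries gave 0 to 3, and leaving out Naive 5 and Ag 1, whose FPKM columns are identical, 4. For the list, 1, 7, 0 and 0 were called with no filter, voom, lane and the 10 libraries, 5 without Naive 5 and Ag 3, 8 without Naive 5 and Ag 1, and 0 to 7 when single libraries were left out. In Ag+Costim vs Ag, DESeq2 called 2 genes and voom 6, and single libraries left out gave 0 to 2. For the list these were 14 (of 42 tested), 21 and 0 to 9, and 2 without Naive 5 and Ag 3. In Ag+Costim vs Naive, no filter called 3 genes and lane 1, and single libraries left out gave 3 to 5. For the list, no filter called 8, voom 26 and lane 3, and single libraries left out gave 9 to 18. Usage was called for 1 gene (Ptbp2) without Ag+Costim 2 and for 0 in every other analysis run.

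Without Naive 5 and Ag 1, Ptbp3 became 0.11, 0.05 and 0.16 in the 3 comparisons. Same-numbered libraries did not deviate together throughout: in Ag vs Naive the correlation was positive for replicates 1, 4 and 5 and negative for 2 and 3. Differently numbered libraries were not compared in this way, so whether the numbers pair the samples was not settled. The fit with the replicate block called 0, 0 and 5 of the 9 genes in the 3 comparisons and usage for 0, and 3, 0 and 15 of the list. Within lanes, no fit exists for Ag vs Naive.

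Signs reversed only for log2 fold changes that edgeR did not call. Over left-out libraries Ptbp3 ran from -0.16 to 0.13, -0.12 to 0.08 and -0.16 to 0.09 in the 3 comparisons, and Qk from -0.13 to 0.35 in Ag vs Naive. Ptbp3 became 0.14 (voom), 0.13 (without Naive 5), 0.01 (without Ag 5) and 0.08 (without Naive 5 and Ag 3) in Ag vs Naive. In Ag+Costim vs Ag it became 0.26 (no filter), 0.08 (without Ag 2), 0.06 (without Ag 3), 0.07 (without Ag+Costim 4) and 0.08 (without Naive 5 and Ag 3). In Ag+Costim vs Naive it became 0.07 (no filter), 0.10 (voom), 0.09 (without Naive 5) and 0.16 (without Naive 5 and Ag 3). In Ag vs Naive, Qk became -0.00 (no filter), -0.22 (voom), -0.13 (without Ag 3) and -0.14 (without Naive 5 and Ag 3), and Ptbp1 -0.05 (voom). In Ag+Costim vs Naive, Celf1 became -0.09 (library totals) and -0.02 (without Naive 2). Transcript shares per length moved beyond 1 SD in 15 of 124 cases. Depth limits Rbfox2, with 4 counts over the Ag+Costim libraries, and the shares of Mbnl3, Ptbp2 and Qk.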
